A study of Mus musculus with 28 samples.

Results

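Mdm2, Mdm4, Cdkn2a, Usp7 and Ppm1d encode proteins that set the level or the activity of p53, and their DNA copy ratio was read in 24 mouse tumours. The 5 genes were chosen by name for their known role, with earlier results of these tumours known, from 20665 autosomal protein-coding genes of the RefSeq annotation. DNA was measured by exome sequencing, in which the captured, mostly coding parts of the genome are sequenced, and each tumour has 1 deposited table of segments with a log2 copy ratio. The tumours were 7 thymic lymphomas of AD mice, 7 thymic lymphomas of RP mice, 5 sarcomas of AD mice and 5 sarcomas of RP mice. AD mice (genotype p53 AD/-) carried an allele for a dimeric p53 opposite a null allele. RP mice (genotype p53 RP/-) carried an allele for a monomeric p53, likewise opposite a null allele, so no group had wild-type p53. All animals were of a mixed BALB/C and C57BL6 background and carried the alleles in the germline. The sample titles carry a different number for each of the 24 tumours, and the labels give no share of tumour cells. Ears of the animals of AD thymic lymphoma 1, RP thymic lymphoma 4, AD sarcoma 5 and RP sarcoma 3 were also sequenced and are not analysed here.

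Wild-type p53 binds DNA as a tetramer and switches on genes that halt or kill a damaged cell. Its level is held down by Mdm2, a ubiquitin ligase that marks p53 for destruction, and its activity by Mdm4, a relative of Mdm2 that covers the activation domain of p53. Cdkn2a encodes Arf, which binds and blocks Mdm2, and from a second start Ink4a, an inhibitor of the cyclin-dependent kinases that act on the retinoblastoma protein. Usp7 is a deubiquitinase that takes ubiquitin off both Mdm2 and p53. Ppm1d is a phosphatase, induced by p53, that removes the activating phosphates placed on p53 after DNA damage. In tumours that keep normal p53, extra copies of Mdm2, Mdm4 or Ppm1d and deletion of Cdkn2a are well-known events.

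A value of 0 was read as the level of the comparison DNA, although neither that DNA nor the centring is stated. If 0 is the normal copy level, normal cells in a tumour draw every value towards 0. A value of 0.3 or above was called gained and one of -0.3 or below lost. The tables held 59 to 517 segments a tumour. AD thymic lymphomas 6 and 7 had the most, 360 and 517. The tissue labels were checked at the T-cell receptor beta genes, which a T cell rearranges with loss of the DNA in between. In the 1 Mb bin over them, 14 thymic lymphomas had log2 ratios of -1.96 to -0.079 (median -0.82) and 10 sarcomas had -0.16 to 0.0049. AD thymic lymphoma 3, at -0.079, lay within the range of the sarcomas, above AD sarcoma 3 at -0.16, and the other 13 thymic lymphomas lay below all sarcomas. The lowest segment of AD thymic lymphoma 3 in that bin was at -0.75, below the lowest of any sarcoma, -0.34 in RP sarcoma 3. Autosomal medians were also lower in thymic lymphomas, -0.25 to -0.015, than in sarcomas, -0.086 to 0.0049.

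Cdkn2a is shown first by sequence, because its transcription starts give different proteins from 1 locus (GRCm38 chromosome 4, 89274473 to 89294619, minus strand). The 250 bases before each RefSeq start follow, from the RefSeq promoter table of GRCm38.p6, with the 20 bases next to the start in capitals.
Upstream start, which gives Arf, chr4:89294620-89294869, minus strand: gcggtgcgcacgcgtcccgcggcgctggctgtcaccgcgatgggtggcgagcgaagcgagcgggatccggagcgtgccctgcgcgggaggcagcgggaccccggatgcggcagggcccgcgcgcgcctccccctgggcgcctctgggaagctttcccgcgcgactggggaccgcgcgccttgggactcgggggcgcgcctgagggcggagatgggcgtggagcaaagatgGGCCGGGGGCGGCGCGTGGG
Downstream start, which gives Ink4a, chr4:89282193-89282442, minus strand: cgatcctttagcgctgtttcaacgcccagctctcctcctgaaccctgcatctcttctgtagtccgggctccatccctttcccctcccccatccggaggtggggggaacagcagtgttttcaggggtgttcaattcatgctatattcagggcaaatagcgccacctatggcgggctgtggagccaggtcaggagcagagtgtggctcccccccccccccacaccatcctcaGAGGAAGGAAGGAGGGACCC
The starts lie 12427 bases apart. The stretch before the Arf start was 78.4% G and C with 40 CpG pairs, and the stretch before the Ink4a start was 60.0% with 7. Both starts lay inside the segment over the gene in 24 of 24 tumours, so the 2 products share 1 copy ratio in each tumour here.

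Each of the 5 regulators sat within a single segment in every tumour, 120 of 120 values. Those segments ran from 6.80 to 192 Mb, with a median of 77.8 Mb and at least 526 markers. No value came from a segment under 3 Mb, against 2.5% of all gene by tumour values, and 31.5% of genes had such a segment in at least 1 tumour. No value reached a log2 ratio of 1 or -1, which 3.47% of genes did in at least 1 tumour. In 29 of the 120 values 1 segment covered the whole chromosome. The copy ratios of these genes were thus those of long stretches of chromosome. In 116 of 120 values the gene lay within 0.1 of the median of its chromosome in the same tumour. Where the segment of the gene itself sets that median, this agreement is built in, and the share over all genes is not given here. At 0.3 or more from the median stood 3 of the 120 values, against 1.56% of all gene by tumour values.

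In thymic lymphomas 9 of 70 values were gained and 4 were lost, or 12.9% and 5.71%. Over all genes in the same tumours 10.4% of values were gained and 18% lost, so the share gained was near the background and the share lost was below it. The 70 values come from only 5 genes on long segments, and the difference from the background was not tested. Centred on the autosome median of each tumour, 18 values were gained (25.7%) and 1 lost (1.43%), against 18.9% and 5.82% over all genes. In sarcomas 0 of 50 values were gained and 0 lost, where the background was 1.83% and 0.714%. Of 14 thymic lymphomas, 7 had 1 call among the 5 genes, 3 had 2 calls and 4 had none. No sarcoma had a call.

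**Figure D1:**
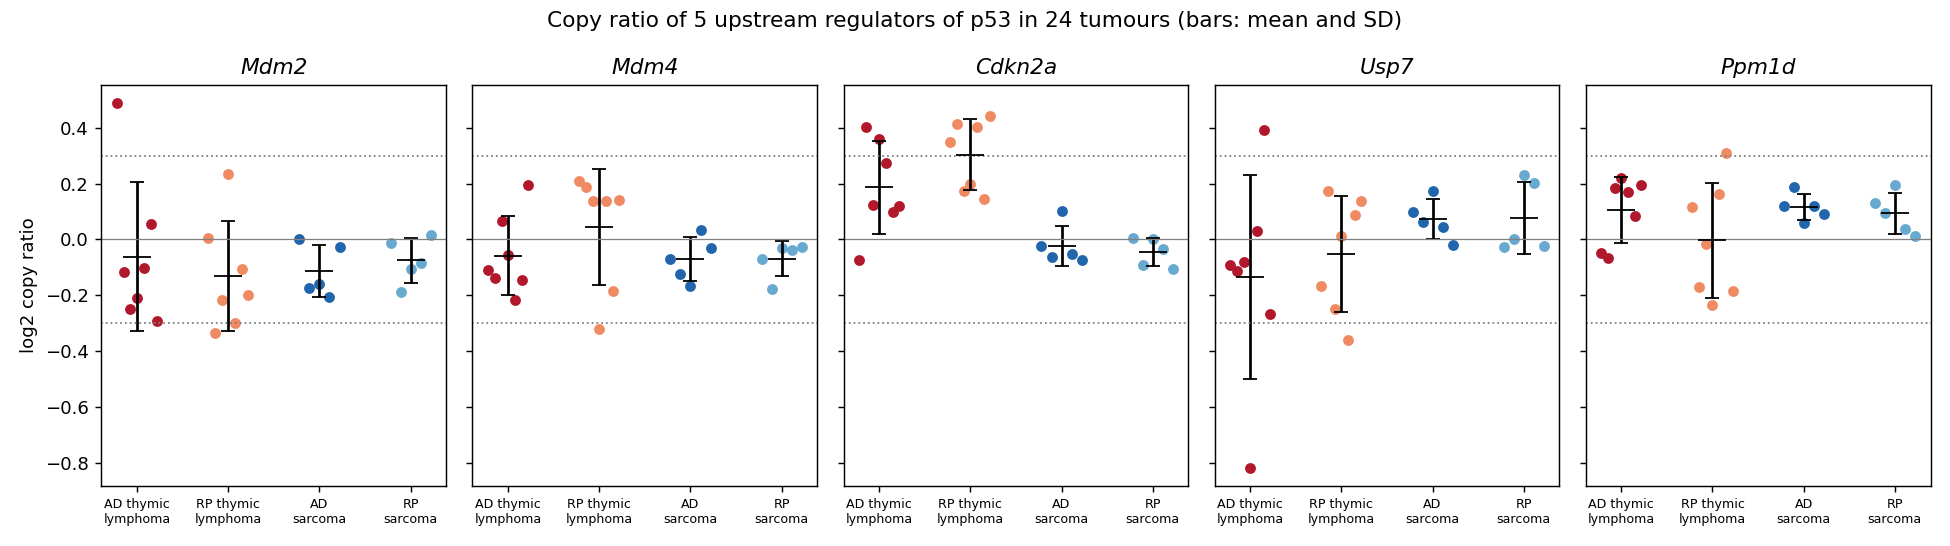
Log2 copy ratio (vertical axis) of each regulator, 1 point per tumour, in AD thymic lymphomas, RP thymic lymphomas, AD sarcomas and RP sarcomas; bars are the mean and SD and dotted lines stand at 0.3 and -0.3. Cdkn2a is above 0 in 13 of 14 thymic lymphomas, and no sarcoma value passes a dotted line in any panel.

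Mdm2 (chromosome 10, 117688875 to 117710758) had 1 gain and 1 loss in 24 tumours. Its log2 ratios were 0.49, -0.12, -0.25, -0.21, -0.10, 0.054 and -0.29 in AD thymic lymphomas 1 to 7, against 0.0066, -0.33, -0.22, 0.24, -0.298, -0.11 and -0.20 in RP thymic lymphomas 1 to 7. AD thymic lymphoma 1 stood alone at the top, and the rest of the AD values lay within the RP range. In the sarcomas Mdm2 had 0.0029, -0.17, -0.16, -0.20 and -0.026 in AD tumours, against -0.013, -0.19, -0.11, -0.084 and 0.016 in RP tumours. Those groups overlapped throughout, and 8 of 10 sarcomas were below 0.

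The Mdm2 gain of AD thymic lymphoma 1 was a copy ratio of 1.40 on a linear scale, carried by a segment of 36.3 Mb with 2384 markers that equalled the chromosome median. The loss in RP thymic lymphoma 2 was a linear ratio of 0.793 on a segment of 39.3 Mb. AD thymic lymphoma 7, at -0.29, and RP thymic lymphoma 5, at -0.298, lay just short of a loss. On chromosome 10, 144 of 1001 genes were gained in more thymic lymphomas than Mdm2. No Mdm2 value exceeded 0.49.

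Mdm4 (chromosome 1, 132986105 to 133030587) was gained in 0 tumours and lost in 1. It had -0.11, -0.14, 0.065, -0.054, -0.22, -0.15 and 0.20 in AD thymic lymphomas 1 to 7, against 0.21, 0.19, 0.14, -0.32, 0.14, -0.19 and 0.14 in RP thymic lymphomas 1 to 7. It was above 0 in 2 of 7 AD and 5 of 7 RP thymic lymphomas, with overlap. The sarcoma values were -0.068, -0.12, -0.17, 0.035 and -0.029 in AD tumours, against -0.070, -0.18, -0.031, -0.037 and -0.027 in RP tumours. All but AD sarcoma 4 were below 0. The only call, in RP thymic lymphoma 4, was a loss of 147.6 Mb at the chromosome median. Mdm4 had the longest segments of the 5 genes, with a median of 147.1 Mb.

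Cdkn2a was called most often, gained in 6 of 14 thymic lymphomas and lost in none of the 24 tumours. AD thymic lymphomas 1 to 7 had -0.073, 0.40, 0.12, 0.36, 0.27, 0.099 and 0.12, against 0.35, 0.41, 0.17, 0.20, 0.40, 0.15 and 0.44 in RP thymic lymphomas 1 to 7. The AD group had 2 gains and the RP group 4, where 10.3% of all values were gained in AD and 10.5% in RP thymic lymphomas, and AD thymic lymphoma 1 was the only 1 of the 14 below 0. AD sarcomas had -0.023, -0.064, 0.10, -0.052 and -0.074, against 0.0049, -0.092, 0.00060, -0.033 and -0.10 in RP sarcomas. The sarcomas lay around 0, with AD sarcoma 3 highest. A gain is the opposite of the deletion for which this locus is known, and the 6 gains were linear ratios of 1.27 to 1.36. Of all genes, 10.4% were gained in 6 or more thymic lymphomas.

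The Cdkn2a gains followed chromosome 4. The gained segments ran from 23.2 Mb in AD thymic lymphoma 4 to 153.2 Mb in RP thymic lymphoma 7, where 1 segment covered the chromosome. Relative to the chromosome median, Cdkn2a had -0.051 to 0 in the 14 thymic lymphomas. It equalled that median in 8 of them, and where its own segment sets the median this agreement is built in. Among the 1328 genes of chromosome 4, 1087 (81.9%) had a higher mean in thymic lymphomas than Cdkn2a. The count of gained thymic lymphomas reached 9 elsewhere on the chromosome and was above that of Cdkn2a for 1086 genes. Cdkn2b, the neighbouring cell-cycle inhibitor gene 11.7 kb away, and Mtap, an enzyme of methionine salvage 93.4 kb away on the other side, had the value of Cdkn2a in 24 of 24 tumours.

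Usp7 (chromosome 16, 8688722 to 8757067) had the widest spread of the 5 genes. Its ratios were -0.090, -0.11, -0.079, -0.82, 0.032, 0.39 and -0.27 in AD thymic lymphomas 1 to 7, against -0.17, 0.17, -0.25, 0.013, -0.36, 0.087 and 0.14 in RP thymic lymphomas 1 to 7. The AD group held both the lowest and the highest value, in tumours 4 and 6. AD sarcomas had 0.099, 0.063, 0.17, 0.044 and -0.019, against -0.026, 0.00040, 0.23, 0.20 and -0.025 in RP sarcomas. RP sarcomas 3 and 4 were the highest of the 10. Usp7 was gained in AD thymic lymphoma 6 and lost in AD thymic lymphoma 4 and RP thymic lymphoma 5.

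Usp7 was also the 1 gene of the 5 that left its chromosome by 0.3 or more. This happened in 3 of its 24 values, where 1.56% of all gene by tumour values did so. In AD thymic lymphoma 4 it stood at -0.82, a linear ratio of 0.567, while the chromosome 16 median was 0.41. That loss spanned 23.4 Mb from 3592397 to 26989908, covered 249 protein-coding genes, and bordered a segment at 0.34. It also took in Crebbp, the acetyltransferase gene of chromosome 16, named here after its value was seen. In RP sarcoma 3 Usp7 stood 0.36 above the chromosome median of -0.13, and in RP sarcoma 5 0.33 above a median of -0.36. The segment of Usp7 ended 8671.1 kb above the gene in RP sarcoma 3 and 8451.6 kb above it in RP sarcoma 5, and the next segments were at 1.42 and 3.01. Usp7 itself, at 0.23 and -0.025, was not called gained in either sarcoma, so the gene lay on the low side of a distant step up.

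**Figure D2:**
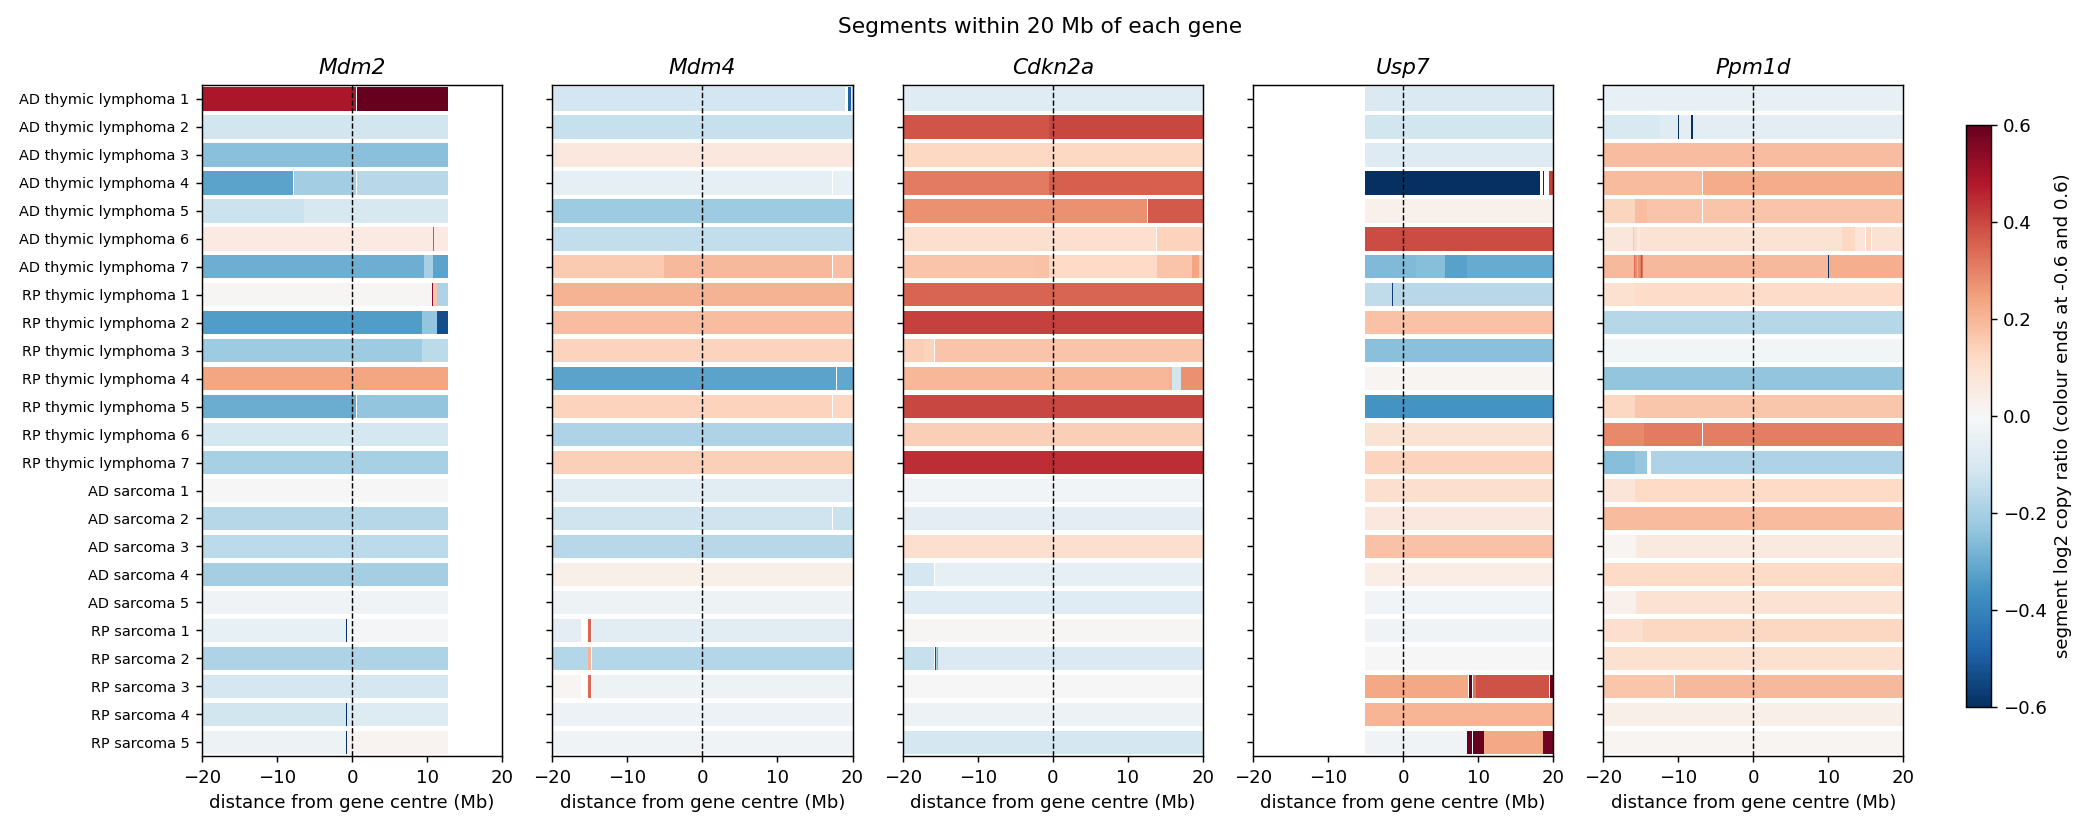
Segments within 20 Mb of the centre of each regulator (dashed line), 1 row per tumour, coloured by log2 copy ratio with the colour scale ending at -0.6 and 0.6; the horizontal axis is the distance from the gene in Mb, and blank areas are past the segmented chromosome. The colours run through the gene without a step in all panels, Usp7 in AD thymic lymphoma 4 lies in a long loss at -0.82, and the gains right of Usp7 in RP sarcomas 3 and 5 begin beyond it.

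Ppm1d (chromosome 11, 85311254 to 85347071) had 1 gain and 0 losses. AD thymic lymphomas 1 to 7 had -0.048, -0.065, 0.18, 0.22, 0.17, 0.086 and 0.20, against 0.12, -0.17, -0.015, -0.23, 0.16, 0.31 and -0.19 in RP thymic lymphomas 1 to 7. The RP group held the highest and the lowest values, and the AD values lay between them. AD sarcomas had 0.12, 0.19, 0.059, 0.12 and 0.093, against 0.13, 0.095, 0.20, 0.036 and 0.013 in RP sarcomas. All 10 sarcomas were above 0, as were those of 17.2% of genes, and none reached 0.3. The gain in RP thymic lymphoma 6, at 0.31, was a 43.4 Mb segment whose value was 0.020 above the chromosome median. Ppm1d shares chromosome 11 with Trp53, the gene of p53 itself, 15.7 Mb away. The pair lay in 1 segment in 10 of 24 tumours and within 0.05 of each other in 17, with the widest gap, 0.29, in RP thymic lymphoma 7. There the Trp53 value averaged a 1.7 kb segment of 5 markers at 0.63 inside the gene with a segment at -0.23. A segment of 5 markers at the same place also entered the Trp53 value in AD thymic lymphoma 5 and RP thymic lymphomas 1 and 5. Such gaps are therefore not a step between long stretches of chromosome 11.

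**Figure D3:**
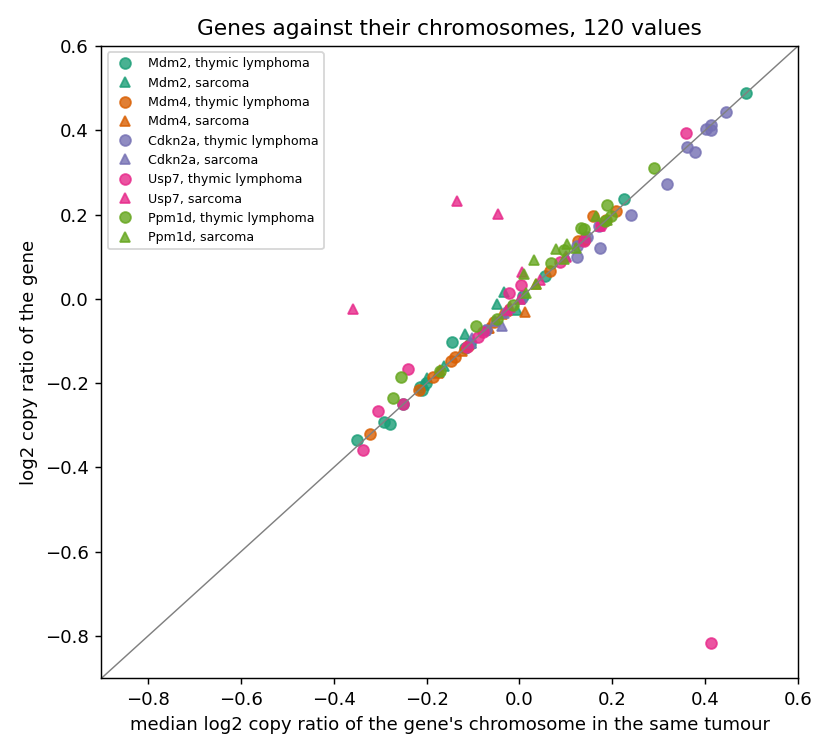
Log2 copy ratio of each regulator (vertical axis) against the median log2 copy ratio of its chromosome in the same tumour (horizontal axis), with circles for thymic lymphomas and triangles for sarcomas; the line marks equality. Of 120 points 116 lie within 0.1 of the line, and the other 4 are Usp7 in AD thymic lymphoma 4 and in RP sarcomas 3, 4 and 5.

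Sorted by role, Mdm2, Mdm4 and Ppm1d, which restrain p53, had 2 gains and 2 losses among 42 values in thymic lymphomas, 4.76% each way, against 10.4% gained and 18% lost over all genes. Usp7 had 1 gain and 2 losses among 14 values. Cdkn2a, whose Arf product opposes Mdm2, had 6 gains and 0 losses among 14. The groups by role hold 1 to 3 genes each, and no difference between them was tested.

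The AD minus RP comparison asks whether the dimeric and the monomeric protein left different copy ratios at the genes upstream of p53. No regulator passed it in thymic lymphomas. Ppm1d averaged 0.11 ± 0.12 in AD and -0.0022 ± 0.21 in RP thymic lymphomas (SD, n = 7 each). Its difference was 0.11 (approximate 95% interval -0.076 to 0.29, exact permutation p = 0.248, adjusted p = 0.586). Cdkn2a averaged 0.19 ± 0.17 in AD and 0.30 ± 0.13 in RP tumours, a difference of -0.12 (-0.29 to 0.055, exact p = 0.165, adjusted p = 0.586). For Mdm4 the means were -0.058 ± 0.14 in AD and 0.044 ± 0.21 in RP tumours, with a difference of -0.10 (-0.29 to 0.090, exact p = 0.288, adjusted p = 0.586). All 3 differences were smaller than 1 SD of the wider group.

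For Mdm2 the means in thymic lymphomas were -0.061 ± 0.27 in AD and -0.13 ± 0.20 in RP tumours, and the difference of 0.069 (-0.16 to 0.30, exact p = 0.605, adjusted p = 0.752) became -0.022 without AD thymic lymphoma 1. Usp7 averaged -0.13 ± 0.36 in AD and -0.052 ± 0.21 in RP tumours, and its difference of -0.083 (-0.36 to 0.19, exact p = 0.633, adjusted p = 0.762) became 0.031 without AD thymic lymphoma 4. Each of these differences thus rested on 1 tumour for its direction. The groups overlapped for all 5 genes. Of all 20665 genes, 0 passed the adjusted exact test in thymic lymphomas (0%), 1766 (8.55%) had an unadjusted p under 0.05, and limma likewise called 0 genes after adjustment and 2067 before it. The smallest exact p that 7 against 7 tumours allow is 0.000583, and at that p 241 genes would have to tie for any to pass after adjustment.

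In sarcomas the AD minus RP differences in log2 copy ratio lay between -0.038 and 0.023. The largest was that of Mdm2, whose AD sarcomas averaged -0.11 ± 0.094 and whose RP sarcomas averaged -0.075 ± 0.080 (SD, n = 5 each). Its difference was -0.038 (approximate 95% interval -0.14 to 0.064, exact permutation p = 0.516, adjusted p = 0.999). The others were 0.023 for Cdkn2a, 0.022 for Ppm1d, -0.0043 for Usp7 and -0.0024 for Mdm4, with exact p of 0.556 or more and adjusted p = 0.999. Measured from the chromosome median, Usp7 stood at 0.012 ± 0.026 in AD sarcomas, against 0.19 ± 0.18 in RP sarcomas, and differed by -0.18 (exact permutation p = 0.167, adjusted p = 1). On that scale its difference in thymic lymphomas was -0.17 (exact p = 0.616, adjusted p = 0.995). The groups overlapped for all 5 genes, and the direction turned when single tumours were left out for Mdm4, Cdkn2a and Usp7. The smallest exact p that 5 against 5 tumours allow is 0.00794, and 0 genes passed after adjustment (0%). At that p, 3281 genes would have to tie for any to pass, so the adjusted exact test could scarcely call a gene in sarcomas. Before adjustment 1047 genes (5.07%) had an exact p under 0.05 and 2867 by limma, which called 0 after adjustment. A test of whether the AD minus RP difference itself differed between thymic lymphomas and sarcomas (limma, an interaction term) passed for none of the 5, with adjusted p of 0.7 to 0.757, and for 0.0871% of genes.

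Thymic lymphomas and sarcomas were then compared within genotype. Cdkn2a alone of the 5 passed. It averaged 0.25 ± 0.15 in 14 thymic lymphomas and -0.033 ± 0.060 in 10 sarcomas (SD). Its difference was 0.28 (approximate 95% interval 0.17 to 0.38, exact permutation p = 6.22e-05, adjusted p = 0.000457). Of all genes, 5.69% passed as higher and 34.2% as lower in thymic lymphomas, and 18.4% of genes had a larger difference in size than Cdkn2a. The difference was 0.21 in AD mice (exact permutation p = 0.029) and 0.35 in RP mice (exact p = 0.00126), and stayed between 0.26 and 0.30 with any 1 tumour left out, with 0.28 without AD thymic lymphoma 3. Thymic lymphomas and sarcomas overlapped in AD thymic lymphomas 1 and 6, which lay below the 0.10 of AD sarcoma 3. Measured from the chromosome median the difference was -0.013 (exact p = 0.0684, adjusted p = 0.505), and 0 genes of 20665 passed on that scale, with 2068 at an unadjusted exact p under 0.05. The number of autosomal markers was 204845 to 204922 in thymic lymphomas and 205073 to 205076 in sarcomas. It also separated AD from RP thymic lymphomas, at 204845 to 204849 in AD and 204917 to 204922 in RP tumours, and, by 1 marker, AD from RP sarcomas, at 205075 to 205076 in AD and 205073 to 205074 in RP tumours. A difference in processing between these groups therefore cannot be told apart from tumour type or from genotype.

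The other 4 regulators did not pass between tumour types. Usp7 averaged -0.093 ± 0.29 in thymic lymphomas and 0.074 ± 0.098 in sarcomas, a difference of -0.17 (-0.35 to 0.014, exact permutation p = 0.0938, adjusted p = 0.227). Without AD thymic lymphoma 6, the tumour with the Usp7 gain, that difference was -0.21 and passed (exact p = 0.0151, adjusted p = 0.0377). That tumour held the highest Usp7 value, so leaving it out could only widen a negative difference, and the pass lends no support. With each tumour left out in turn, the result stayed the same in 23 of 24 cases. Mdm4 averaged -0.0070 ± 0.18 in thymic lymphomas and -0.069 ± 0.067 in sarcomas, a difference of 0.062 (-0.058 to 0.18, adjusted p = 0.556). Ppm1d differed by -0.053 (-0.17 to 0.062, adjusted p = 0.567) and Mdm2 by -0.0024 (-0.15 to 0.15, adjusted p = 0.986). The intervals of these 3 genes reach from -0.17 to 0.18. Mdm2 and Ppm1d turned to 0.086 and 0.036 when each tumour was centred on its own autosome median.

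**Figure D4:**
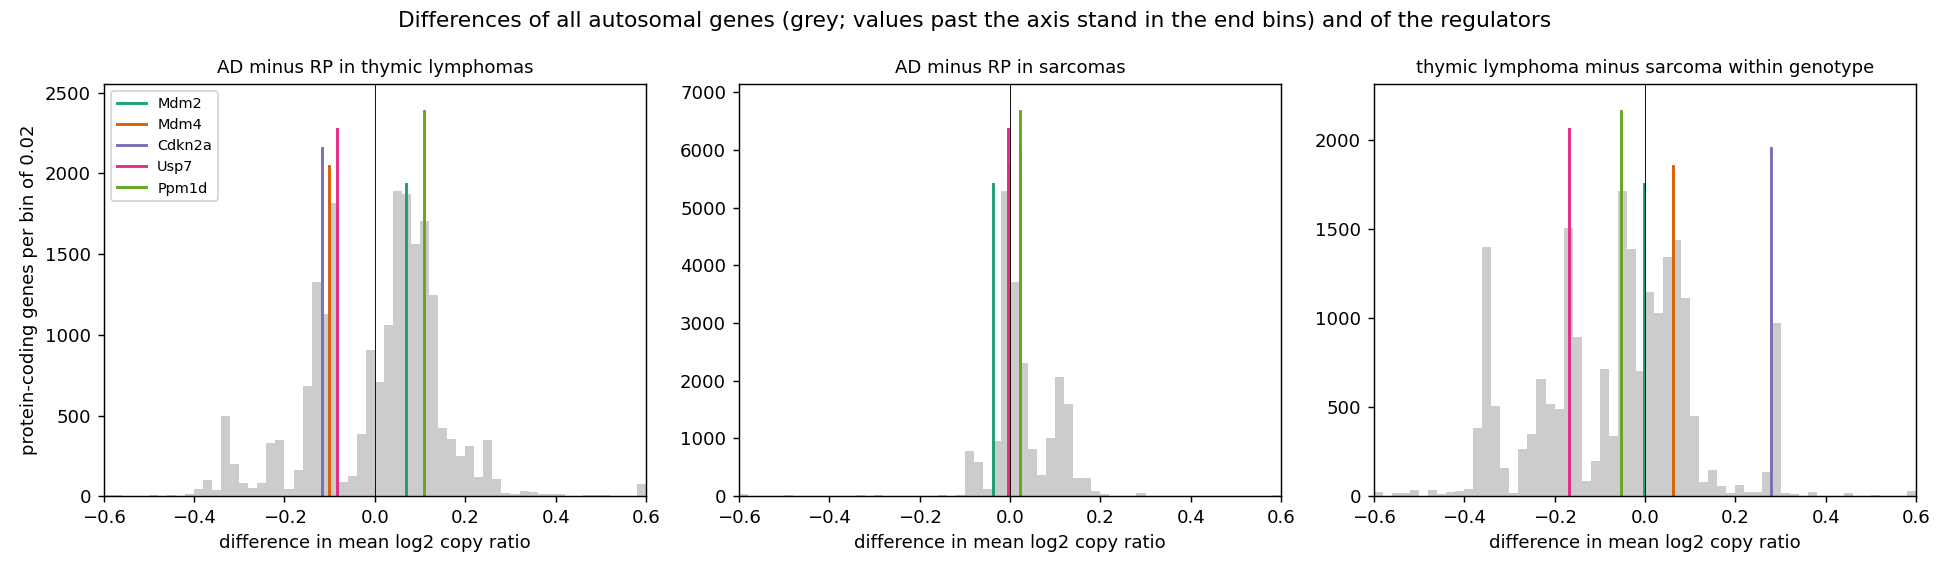
Differences in mean log2 copy ratio of all 20665 genes (grey bars, genes per bin of 0.02) for AD minus RP in thymic lymphomas, AD minus RP in sarcomas, and thymic lymphoma minus sarcoma within genotype; coloured lines mark the 5 regulators and have no meaning in their height. Only Cdkn2a at 0.28, in the right panel, passed its test, and it stands in a peak of genes with like differences.

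The order of the group means differed from gene to gene. Cdkn2a was highest in RP thymic lymphomas, then AD thymic lymphomas, AD sarcomas and RP sarcomas, with means of 0.30, 0.19, -0.022 and -0.045. Ppm1d ran in the order AD sarcomas, AD thymic lymphomas, RP sarcomas and RP thymic lymphomas, at 0.12, 0.11, 0.094 and -0.0022. For Usp7 the sarcomas led, at 0.077 in RP and 0.072 in AD tumours, before -0.052 in RP and -0.13 in AD thymic lymphomas. Mdm4 was highest in RP thymic lymphomas and lowest in AD sarcomas, and Mdm2 was highest in AD and lowest in RP thymic lymphomas. In these orders neighbouring means differed by less than 1 SD of the more variable group, apart from the step of Cdkn2a from AD thymic lymphomas to AD sarcomas.

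A segment edge lay within 2 Mb of the gene in 12 of 120 values (10%), against 13.7% of all gene by tumour values. Within 0.5 Mb there was an edge in 7 values (5.83%), against 5.37%, and within 0.1 Mb in 1 value (0.833%), against 1.92%. Mdm2 had 7 of the 12, Cdkn2a 3, Usp7 2, and Mdm4 and Ppm1d none. The nearest was 79.2 kb above Mdm2 in RP thymic lymphoma 2, where the lost segment gave way to one of 71.7 kb at 0.073 over Nup107, a nuclear pore gene, and Rap1b, a small GTPase gene.

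Several edges recurred at the same base. AD thymic lymphomas 1 and 4 and RP thymic lymphoma 5 shared an edge 498.7 kb above Mdm2, next to a 4.2 kb segment of 4 markers at Iltifb, an interleukin-22-related gene, with log2 ratios of -0.32, -0.68 and -3.43. RP sarcomas 1, 4 and 5 shared an edge 732.1 kb below Mdm2, next to losses of 29.1 to 32.2 kb at Rab3ip with ratios of -0.83, -0.88 and -0.85. Below Cdkn2a, AD thymic lymphomas 2 and 7 shared an edge 471.2 kb away, next to a segment of 2 markers in the type I interferon cluster at -0.37 and -2.04. None of these short segments reached a regulator. Whether a shared edge came from the tumour or from the strain background was not tested.

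The stretch that kept the value of the gene in all 24 tumours sets how finely the data resolve each locus. It was shortest for Mdm2, 0.76 Mb with 12 genes from Best3 to Slc35e3. For Usp7 it held 14 genes over 1.99 Mb, and for Cdkn2a 58 genes over 13.1 Mb. For Mdm4 it held 146 genes over 22.4 Mb and for Ppm1d 189 genes over 16.5 Mb. The 2 nearest genes on either side had the value of the regulator in 24 of 24 tumours at all 5 loci, with the exception of Nup107 beside Mdm2 in 23 of 24. At Ppm1d those neighbours included Bcas3 and Tbx2, and at Mdm4 Pik3c2b and Ppp1r15b, so no locus singled out its regulator.

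On other chromosomes, the gene most like each regulator was taken as the one with the smallest mean absolute difference in log2 ratio over the 24 tumours. It was Gm45927 on chromosome 3 for Mdm2, at 0.10, and Tshz2 on chromosome 2 for Mdm4, at 0.080. Angpt1 on chromosome 15 was nearest to Cdkn2a, at 0.14, with the same call in 22 of 24 tumours. H2-DMa on chromosome 17 was nearest to Usp7, at 0.15, and 4921528I07Rik on chromosome 9 to Ppm1d, at 0.11. These are descriptions of the closest profiles among all autosomal genes, and tumours share their overall level across genes.

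Further regulators that act on p53 or Mdm2 were followed in 5 lists of 69 genes, of which 68 are autosomal and Otud5, on chromosome X, was not tested. In AD minus RP comparisons 0 of the 68 passed the exact permutation test or limma, and 5 in thymic lymphomas (7.35%) and 2 in sarcomas (2.94%) had an unadjusted exact p under 0.05, where 8.55% and 5.07% of all genes did. Between tumour types the ubiquitin and SUMO ligases and other inhibitors had 2 of 16 higher and 6 lower in thymic lymphomas, the deubiquitinases 0 of 6 higher and 3 lower, and the Arf and ribosomal stress genes 1 of 16 higher and 2 lower. The kinases and phosphatases had 0 of 14 higher and 3 lower, and the acetylation, methylation and cofactor genes 1 of 16 higher and 5 lower. Over the 68 genes 5.88% were higher and 27.9% lower, near the 5.69% and 34.2% of all genes. Median differences of these lists were -0.041, -0.070, -0.0047, -0.021 and 0.026, beside -0.044 over all genes.

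The 4 genes that were higher all lie on chromosome 4, with Cdkn2a. Ube4b, a ubiquitin chain elongation factor, averaged 0.31 ± 0.16 in thymic lymphomas and 0.010 ± 0.057 in sarcomas (adjusted p = 0.000632 by the exact permutation test). Topors, a ubiquitin and SUMO ligase, averaged 0.26 ± 0.16 in thymic lymphomas and -0.040 ± 0.066 in sarcomas (adjusted p = 0.000456). Rpl11, a ribosomal protein that binds Mdm2, and Hdac1, a histone deacetylase, had differences of 0.28 and 0.29 (adjusted p = 0.00109 and 0.00074). All 4 were gained in 7 to 9 thymic lymphomas, against 6 for Cdkn2a, and 1086 of the 1328 genes of chromosome 4 were likewise gained in more than Cdkn2a.

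Among the genes that were lower, Usp5, a deubiquitinase on chromosome 6, averaged -0.28 ± 0.15 in thymic lymphomas and -0.034 ± 0.048 in sarcomas (adjusted p = 0.00015 by the exact permutation test). The widest differences were on chromosome 7, in genes named here after their values were seen, with -0.37 for Kat8, an acetyltransferase, -0.35 for Trim28, a corepressor, and -0.34 for both Nop53, a nucleolar protein, and Ppp1r13l, an inhibitor of p53. Mkrn1 and Hipk2, a ligase and a p53 kinase that share a segment of chromosome 6, both had a difference of -0.21 (adjusted p = 0.0069). Otub1 and Ppp1ca on chromosome 19 had differences of -0.20 and -0.21 (adjusted p = 0.0112 and 0.0115). Csnk1a1, casein kinase 1 alpha, had a difference of -0.17 (adjusted p = 0.0135). It was called lost in 8 thymic lymphomas, where 18% of all gene by tumour values were lost. The share of all genes lost in as many tumours is not given here. Cdkn2aip, a binding partner of Arf on chromosome 8, had a difference of -0.17 (adjusted p = 0.0069). The differences of these genes are of values not centred on the autosome medians. Those medians were themselves lower in thymic lymphomas, at a median of -0.11 against -0.024 in sarcomas. Fewer genes passed after centring, and centred differences of these genes are not given here. Gnl3, Prmt5, Ep300 and Usp42, also among the genes with the most calls in their lists, did not pass between tumour types. Their differences were 0.072, 0.11, 0.091 and 0.077 (exact permutation test, adjusted p = 0.696, 0.567, 0.552 and 0.555).

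Values past a log2 ratio of 1, absent from the 5 regulators, occurred in 3 of 1632 list values, 2 of them of Akt1 and 1 of Ppp1r13b. Over all genes 0.24% of gene by tumour values reached 1 or -1. Their absence from 120 values therefore does not set the regulators apart. Akt1, a kinase that phosphorylates Mdm2, stood at 4.80 in AD thymic lymphoma 6 on a segment of 0.590 Mb. Ppp1r13b, a cofactor of p53 also on chromosome 12, stood at 1.18 in AD thymic lymphoma 5 on a segment of 0.0678 Mb with 13 markers. Both sat on short segments, unlike any of the 120 values of the 5 regulators.

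**Figure D5:**
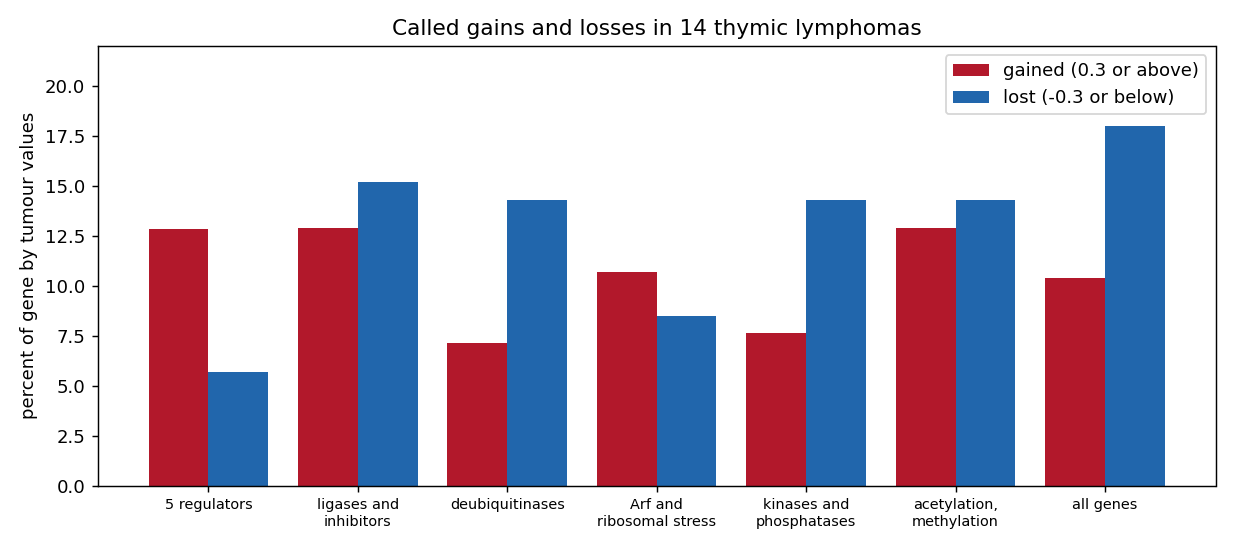
Percent of gene by tumour values gained (red) and lost (blue) in the 14 thymic lymphomas for the 5 regulators, for 5 lists of further p53 regulators and for all genes. The regulators had 12.9% gained and 5.71% lost, against 10.4% and 18% over all genes, a difference that rests on 5 genes and was not tested.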

How the data were processed

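Exome libraries of 24 mouse tumours were analysed from 1 segment table each; 4 ear samples were not used. Per the file headers, each deposited segment has a chromosome, start, end, number of markers and segment mean, read here as a log2 copy ratio; the base is not stated. The number of markers is another deposited column and is not a read count, so read depth is unknown and only the tumours measure error. Build GRCm38, GATK 4.1.0.0, BWA 0.7.17 and Trim Galore 0.6.5 come from the submitters' processing notes. For the comparison DNA, the segmentation settings and the centring nothing is stated (not given in the sources used here). Mouse RefSeq gene positions (GRCm38.p6) were used. A gene took the overlap-weighted mean of its segments, or the nearest segment where none overlapped. Two-sided exact permutation tests compared mean log2 between groups over all 20665 genes on 19 autosomes, with Benjamini-Hochberg adjustment at 0.05. The interaction came from limma 3.58.1 (R 4.3.3). All intervals are the limma difference plus or minus 2 standard errors, so they are only approximately 95% intervals with groups this small. Thymic lymphomas and sarcomas were permuted within genotype. Other steps used scipy 1.17.1, pandas 2.3.3 and numpy 2.4.6 in Python 3.11.15, and plots used matplotlib 3.10.9. The tests were tested on simulated data. Named genes were the 5 regulators, Trp53, the 2 nearest genes on either side, the genes most like each regulator on other chromosomes, and the listed genes with the most calls or a value past 1. Members and lists were chosen with earlier results of these data known. Alternatives were centring each tumour on its autosome median, values relative to the chromosome median, segments under 10 markers left out, the segment of largest overlap, limma, call thresholds of 0.2 and 0.5, and leaving out each tumour.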

Additional observations from a re-analysis of the deposited data

Results flagged for a closer look

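Mdm4 in RP sarcoma 2 had a log2 copy ratio of -0.18, below the nearest of the other RP sarcomas at -0.070. Its gap was 0.715 of the whole range of the 5 tumours, past the Dixon critical value of 0.71. It was 1 of 20 sets of a gene in a group that were examined, and chance marks about 1 in 20. The value was the median of chromosome 1 in that tumour and did not reach a loss.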

How the results depend on the processing

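Leaving out segments under 10 markers and taking the segment of largest overlap could not change the values of the 5 regulators. Each lay within 1 segment of at least 526 markers in every tumour. Limma compares the same group means, so it could not change a direction either. The calls of the 5 regulators stayed the same under these 3 settings. Centred on autosome medians, Cdkn2a still passed between tumour types, while Mdm2 and Ppm1d turned to 0.086 and 0.036 and the genes that passed fell to 4513, against 8235. The centring lifted thymic lymphomas by a median of 0.11. Relative to the chromosome median, 0 genes passed and the difference between tumour types of Cdkn2a turned to -0.013. On that scale the AD minus RP difference turned to 0.0042 for Mdm4 and -0.0079 for Ppm1d in thymic lymphomas, and to 0.0099 for Mdm4 and -0.0073 for Cdkn2a in sarcomas. The interactions of Usp7 and Ppm1d turned to 0.0036 and -0.026.

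Values gained in thymic lymphomas numbered 14 at a threshold of 0.2, 0 at 0.5 and 18 after centring. Those lost numbered 14, 1 and 1. In sarcomas the threshold of 0.2 gave 2 gained and 1 lost.

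With 1 tumour left out, AD minus RP in thymic lymphomas ran from -0.022 to 0.13 for Mdm2 and from -0.17 to 0.031 for Usp7. In sarcomas it ran from -0.029 to 0.022 for Mdm4, from -0.0083 to 0.035 for Cdkn2a and from -0.030 to 0.034 for Usp7. Thymic lymphoma minus sarcoma ran from -0.048 to 0.017 for Mdm2 and from -0.21 to -0.11 for Usp7, and the interaction of Usp7 from -0.17 to 0.035. No paired analysis was possible because replicate numbers only follow the order of the labels. Bulk tumour DNA and an unstated comparison DNA limit all values, since fewer tumour cells and a smaller copy change cannot be told apart.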
